A study of Homo sapiens with 4 samples.

Results

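State-only regions are stretches of the genome where a peak of SAF-A binding was listed in both libraries of 1 cell state and in neither library of the other. They were found by merging the peaks of 4 lists on chromosomes 1 to 22 wherever they shared at least 1 bp. Of 236215 merged regions, 10576 (4.48%) met the rule, 3945 of them asynchronous-only and 6631 mitotic-only. The members were chosen by the peak calls themselves, so their number and strength are given as descriptions, and tests between the states are given only for the summits of neighbouring regions called in all 4 libraries.

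The data are CUT&Tag profiles of RPE1, an immortalised human retinal pigment epithelial cell line, wild type in all samples. Asynchronous cells, in all phases of the cycle, gave 2 libraries, and cells synchronised in mitosis gave 2, numbered replicates 3 and 4 in each state. The labels name neither the means of synchronisation nor the purity of the mitotic cells, and they do not say that the replicates came from separate cultures. A p-value here reflects no more than how far these libraries spread, possibly for technical reasons, and an exact two-sided permutation test of 2 libraries against 2 cannot go below 0.333. The cell line and the mitotic state cannot be checked in peak lists, which hold no expression.

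SAF-A (scaffold attachment factor A, also called HNRNPU) is an abundant nuclear protein with a DNA-binding SAP domain and an RNA-binding RGG domain. In interphase it joins chromatin to nuclear RNA, and in mitosis its bulk leaves the chromosomes after phosphorylation by the kinase Aurora B. In CUT&Tag an antibody guides a transposase to the protein, and the fragments cut there are sequenced. The series profiled SAF-A in both states, which lets its calls be set side by side.

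Depth differed within both states. The background of a list, in fragments per position, was 1.38 (replicate 3) and 1.17 (replicate 4) for asynchronous cells, and 1.17 and 1.79 for mitotic cells. The lists held 98519 and 74627 autosomal peaks in asynchronous cells and 76908 and 111887 in mitotic cells. Mitotic replicate 4 was thus the deepest library and the longest list, and asynchronous replicate 4 the shortest. Peaks narrower than 183 bp occurred in every list but that of mitotic replicate 3.

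The state-only sets were of middling size among the 6 pairs of libraries. The 4 libraries form 6 pairs, and regions called in exactly the 2 libraries of a pair were counted for each. The pairs that mix the states gave 3543 regions (replicate 3 of both states), 5912 (replicate 4 of both), 9565 (asynchronous replicate 3 with mitotic replicate 4) and 2293 (asynchronous replicate 4 with mitotic replicate 3). The pair with the highest backgrounds thus had the most regions and the pair with the lowest the fewest, and both state-only sets lay between them. The order was not that of the backgrounds throughout, since the asynchronous pair had a slightly lower product of backgrounds than replicate 3 of both states (1.608 against 1.617) and more regions. The part of depth in these numbers was not tested. The mitotic-only set was 1.68 times as large as the asynchronous-only set. This ratio depended on the lists. With lists of equal length the sets held 5064 and 3719 regions, and with a -log10 q of at least 5 in every list 2119 and 511.

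Set against what each pair shared, the state-only sets were also within the range of the mixed pairs. Of 30482 regions with a peak in both asynchronous libraries, 12.9% (95% Wilson interval 12.6% to 13.3%) had none in either mitotic library. Of 34797 regions with a peak in both mitotic libraries, 19.1% (18.6% to 19.5%) had none in either asynchronous library. The mixed pairs ran from 8.72% to 23.8%. Such intervals cover counting error only.

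**Figure D1:**
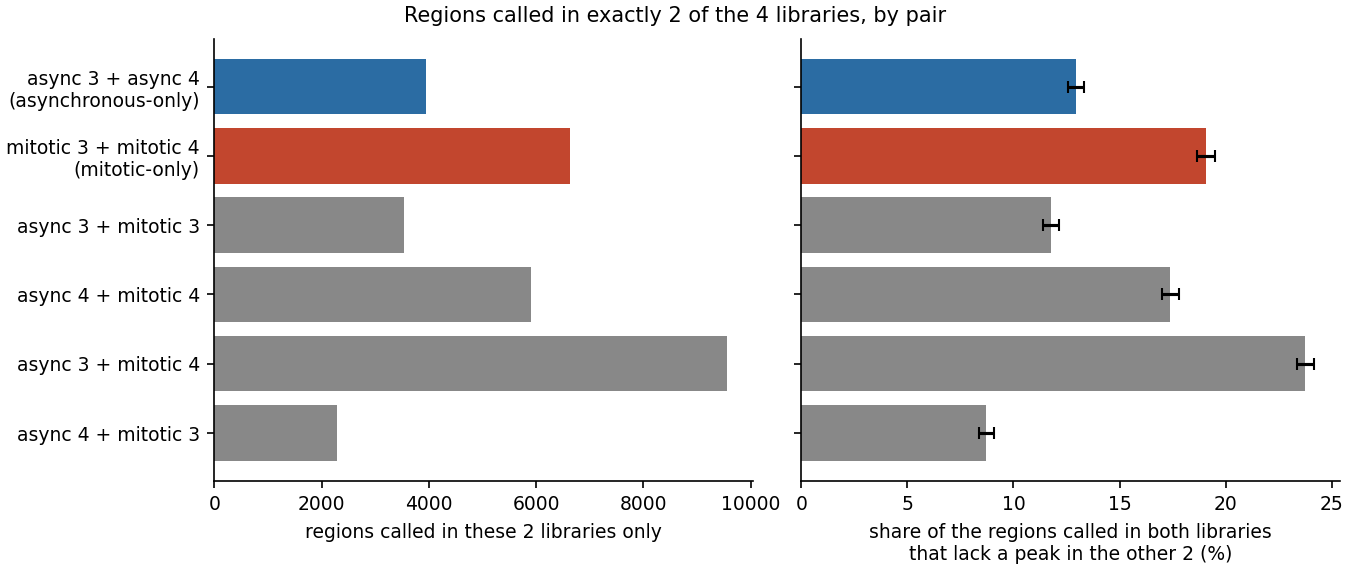
Number of regions called in exactly the 2 named libraries (left) and their share of all regions called in both of those libraries, in percent with 95% Wilson intervals (right). Blue and red bars are the state-only sets, and grey bars are the pairs that mix the states, which run from 2293 to 9565 regions.

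State-only peaks were of middling strength in their own lists and lower than those of regions called in all 4 libraries. The summit pileup, the number of fragments at the highest point of a peak, had a median of 12 and 11 fragments in asynchronous replicates 3 and 4 over asynchronous-only regions, and of 11 and 15 in mitotic replicates 3 and 4 over mitotic-only regions. Regions with a peak in all 4 libraries had medians of 25 and 21 in asynchronous and 20 and 33 in mitotic cells. Single-library regions had medians of 9, 9, 9 and 11. State-only summits thus lay slightly above single-library ones and well under those called everywhere. Ranked within its list, the median state-only peak stood at percentile 46.5 and 42.4 for asynchronous-only and 49.4 and 53.5 for mitotic-only regions. The highest asynchronous-only summits had 3182 and 2531 fragments, and the highest mitotic-only summits 53 and 96. These asynchronous-only maxima were outliers, as the 95th percentiles were 23 and 21 fragments, against 20 and 30.5 in mitotic-only regions. Among the mixed pairs, replicate 4 of both states also had high maxima, 457 and 984 fragments.

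Where both peaks ranked in the upper 50% of their lists by the authors' q-value, 853 of 20645 regions of the asynchronous pair (4.13%) and 2128 of 23453 of the mitotic pair (9.07%) were state-only. Where both ranked in the lower 50%, the shares were 43.9% and 52.8%. The deepest mixed pair had 11.1% and 60.4%, again above both states. Replicate 3 of both states had 3.55% and 43.9%, and replicate 4 of both had 6.63% and 51.9%. Members with both peaks at a -log10 q of at least 5 and no peak at all in the other state numbered 147 (3.73% of asynchronous-only) and 709 (10.7% of mitotic-only). The mixed pairs had 114, 438, 928 and 80 such regions, which was 3.22%, 7.41%, 9.70% and 3.49% of their sets. The mitotic share of 10.7% was the highest of the 6 pairs in the lists as deposited. With lists of equal length it was 14.8%, under the 16.4% of the deepest mixed pair.

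The peaks of a state-only pair were less well aligned than those of regions called everywhere. The summits of the 2 libraries lay a median of 116 bp apart in asynchronous-only and 101 bp apart in mitotic-only regions, against 106 to 121 bp in the mixed pairs. In regions called in all 4 libraries the summits lay 54 bp apart between the asynchronous and 57 bp apart between the mitotic libraries. Summits within 50 bp of each other made up 28.1% of asynchronous-only and 32.6% of mitotic-only regions, the latter the highest of the 6 pairs.

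Many state-only regions had a peak of the other state close by, as regions of the mixed pairs had one of their other 2 libraries. Of asynchronous-only regions, 190 (4.82%) lay within 100 bp of a mitotic peak, 673 (17.1%) within 500 bp and 1858 (47.1%) within 2 kb. Of mitotic-only regions, 193 (2.91%) lay within 100 bp of an asynchronous peak, 914 (13.8%) within 500 bp and 2665 (40.2%) within 2 kb. The mixed pairs had 12.6% to 19.2% within 500 bp of a peak of the other 2 libraries, and 37.1% to 49.1% within 2 kb. Both states were within these ranges. Over all merged regions the nearest other region lay a median of 1916 bp away. At the edge of the rule, the asynchronous-only region on chromosome 1 from 41012359 to 41012638 (11 and 9 fragments) ended 1 bp from a mitotic peak. The mitotic-only region on chromosome 1 from 234994379 to 234994843 (11 and 15 fragments) abutted an asynchronous peak with no base between them.

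Regions just outside the rule had 1 peak too many, and that peak was usually of ordinary strength for its list. In the 5465 regions with both mitotic peaks and 1 in asynchronous replicate 3, the asynchronous summit had a median of 15 fragments. In the 2879 with both mitotic peaks and 1 in asynchronous replicate 4 it had 13. In the 1304 and 5411 regions with both asynchronous peaks and 1 in mitotic replicate 3 or 4, the mitotic summit had 12 and 19. Over all peaks the lists had medians of 12 and 12 (asynchronous) and 11 and 14 (mitotic) fragments, so these peaks were at or above the typical height. The one nearest the authors' limit was on chromosome 22 from 19617445 to 19618074, with 8 fragments in each mitotic library and 6 in asynchronous replicate 3, where the authors' q was 0.0979.

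Several of the strongest state-only regions had a peak of the other state beside them. Among the 5 strongest mitotic-only regions by rank, the first, on chromosome 5 from 47044070 to 47044539, reached 47 and 44 fragments (11.96-fold and 10.6-fold over local background, the authors' values). It lay 319 bp from an asynchronous peak, 4438 bp from a region called in all 4 libraries and about 0.956 Mb from the approximate centromere midpoint. The one on chromosome 17 from 47643805 to 47644418 (32 and 52 fragments) lay 541 bp from an asynchronous peak, and the one on chromosome 16 from 2953475 to 2953874 (30 and 54 fragments) lay 1129 bp from a region called in all 4. The other two stood farther from asynchronous peaks. They were on chromosome 3 from 58039855 to 58040130 (37 and 59 fragments), at 5275 bp, and on chromosome 2 from 242461612 to 242461939 (28 and 58 fragments), at 4968 bp and 0.235 Mb from the end of the chromosome.

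Among the 5 strongest asynchronous-only regions, the first, on chromosome 3 from 111295958 to 111296309 (25 and 27 fragments, 9.83-fold and 11.1-fold), lay only 18 bp from a mitotic peak. Chromosome 11 from 120147864 to 120148137 (60 and 53 fragments, 3.99-fold and 4.08-fold) lay 747 bp from a mitotic peak, and chromosome 3 from 104406242 to 104406868 (37 and 29 fragments) lay 1212 bp from one. For the remaining 2 the gap was 4717 bp (chromosome 3 from 188919767 to 188920046, 37 and 32 fragments) and 7002 bp (chromosome 9 from 126680118 to 126680442, 31 and 28 fragments). This ranking left out members under 183 bp wide, of which there were 10, all asynchronous-only.

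State-only regions lay nearer to regions called in all 4 libraries than single-library regions did. The median edge-to-edge distance was 21.6 kb for asynchronous-only and 24.4 kb for mitotic-only regions. The mixed pairs had 22.9 to 24.6 kb, and single-library regions 29.2 to 32.6 kb. The asynchronous-only median was the lowest of the 6 pairs, and the mitotic-only median was within the mixed range. This order of the states turned without asynchronous replicate 3 (24.5 kb against 19.98 kb for mitotic-only) or replicate 4 (24.1 against 17.99 kb). With a -log10 q of at least 5 in every list the medians were 35.8 and 44.1 kb. Single-library regions of mitotic replicate 3 had the largest median, 32.6 kb, and their part in the mitotic-only value was not tested.

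In the far tail the order of the states was the same. Within 100 kb of a region called in all 4 libraries lay 90.3% of asynchronous-only and 86.4% of mitotic-only regions, against 88.0% to 90.3% in the mixed pairs. The mitotic-only share was the lowest of the 6 pairs. With lists of equal length the shares were 90.6% and 84.7%, against 87.0% to 89.3% in the mixed pairs, so both states then lay outside the mixed range. More than 1 Mb away lay 12 asynchronous-only regions (0.304%) and 37 mitotic-only regions (0.558%). That share was 0.392% to 0.596% in the mixed pairs, so the mitotic-only share was within their range and the asynchronous-only share under it.

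Among strong members the gap between the states was wider. The 147 asynchronous-only regions with both peaks at a -log10 q of at least 5 had a median distance of 15.7 kb, and the 709 such mitotic-only regions had 26.7 kb. The mixed pairs had 20.8 to 23.7 kb. This subset was chosen after the data were seen, and the difference has no test.

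Close to shared regions the numbers were not smooth. Of asynchronous-only regions, 109 lay within 1 kb of a region called in all 4 libraries, 72 between 3 and 4 kb and 138 between 5 and 6 kb. Of mitotic-only regions, 199, 97 and 203 lay in these ranges. Single-library regions had 3395, 2001 and 4316. The dip at 3 to 4 kb was thus present in state-only and in single-library regions alike.

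**Figure D2:**
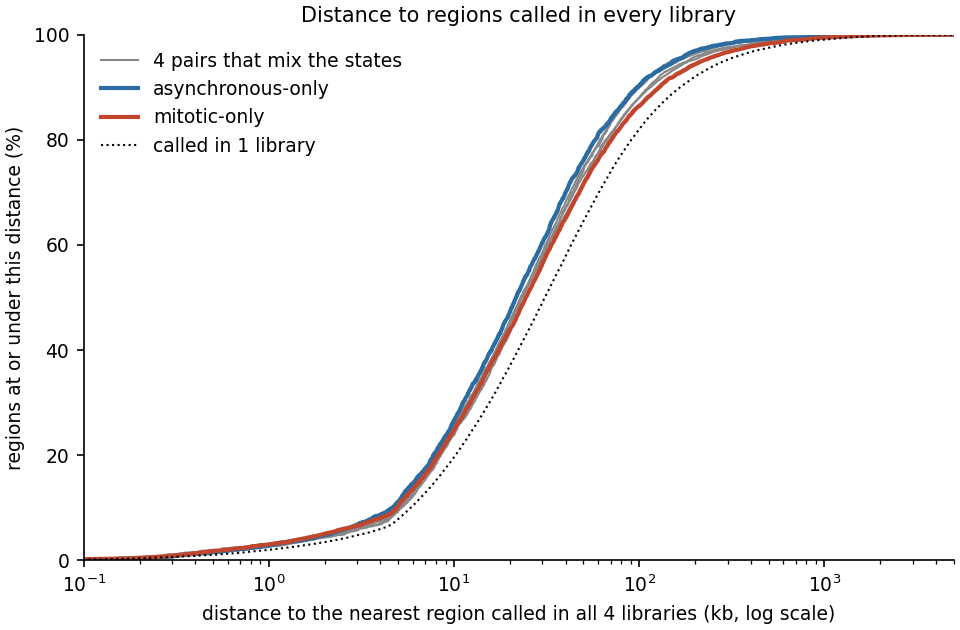
Share of regions (percent, cumulative) at or under each distance to the nearest region called in all 4 libraries (kb, log scale), for asynchronous-only (blue), mitotic-only (red), the 4 mixed pairs (grey) and single-library regions (dotted). The state-only curves cross their 50% level at 21.6 and 24.4 kb, to the left of the dotted curve.

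Members could also lie megabases from any shared region. The farthest asynchronous-only region, on chromosome 22 from 11350227 to 11350483 (10 and 12 fragments), was 6.41 Mb from a region called in all 4 libraries. On the same short arm, asynchronous-only chromosome 22 from 9493229 to 9493680 (8 and 7 fragments) and mitotic-only chromosome 22 from 9512051 to 9512263 (8 and 10 fragments) lay 4.84 and 4.85 Mb from such a region. Regions of opposite state thus stood beside each other there. The next mitotic-only regions were on chromosome 14 from 78974088 to 78974656 (11 and 14 fragments, 3.22 Mb) and chromosome 9 from 9658655 to 9658940 (9 and 9 fragments, 2.73 Mb). The third asynchronous-only region was on chromosome 4 from 45425448 to 45425893 (7 and 9 fragments, 2.005 Mb).

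By chromosome, state-only regions followed the general density of peaks. They were densest on chromosomes 19 and 17, with 7.503 and 7.25 per Mb, and on chromosome 22 with 5.77, and sparsest on chromosomes 4 and 13, with 1.40 and 1.66. Across the 22 chromosomes their density and that of all merged regions had a Pearson correlation of 0.983, which is a description, since both come from the same lists. As a share of merged regions they also varied, from 3.85% on chromosome 4 to 5.51% on chromosome 19. This share was higher on denser chromosomes, with a Pearson correlation of 0.794 with the density of all merged regions, again a description. Mixed pairs, too, had a smaller share on chromosome 4 than on chromosome 19. Of 7036 merged regions on chromosome 4, 233 belonged to the pairs of like replicate number and 349 to the remaining mixed pairs. Of 8397 on chromosome 19, 376 and 484 did. The difference between these chromosomes was thus not particular to state-only regions. Asynchronous-only regions made up 2.33% on chromosome 22 and 2.26% on chromosome 19, against 1.67% overall and 1.22% on chromosome 8. Mitotic-only regions ranged from 2.39% on chromosome 14 to 3.25% on chromosome 19, against 2.81% overall.

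The balance of the states shifted modestly between chromosomes. Mitotic-only regions were 62.7% of state-only regions overall. The share was highest on chromosome 8, at 68.6% (95% Wilson interval 63.6% to 73.2%; 247 mitotic-only, 113 asynchronous-only), and chromosome 5, at 67.3% (64.0% to 70.5%; 528 and 256). It was lowest on chromosome 22, at 55.4% (49.7% to 61.0%; 164 and 132), and chromosome 7, at 57.4% (53.1% to 61.5%; 304 and 226). These 4 intervals left out the overall share, and they cover counting error only. The share varied with an SD of 3.32 points over chromosomes. The same share between the mixed pairs varied with an SD of 2.64 points (replicate 4 against replicate 3) and 2.47 points (deepest against shallowest pair). The share of the deepest pair ran from 76.2% to 86.5%, a level with less counting error, so its SD is not directly comparable.

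**Figure D3:**
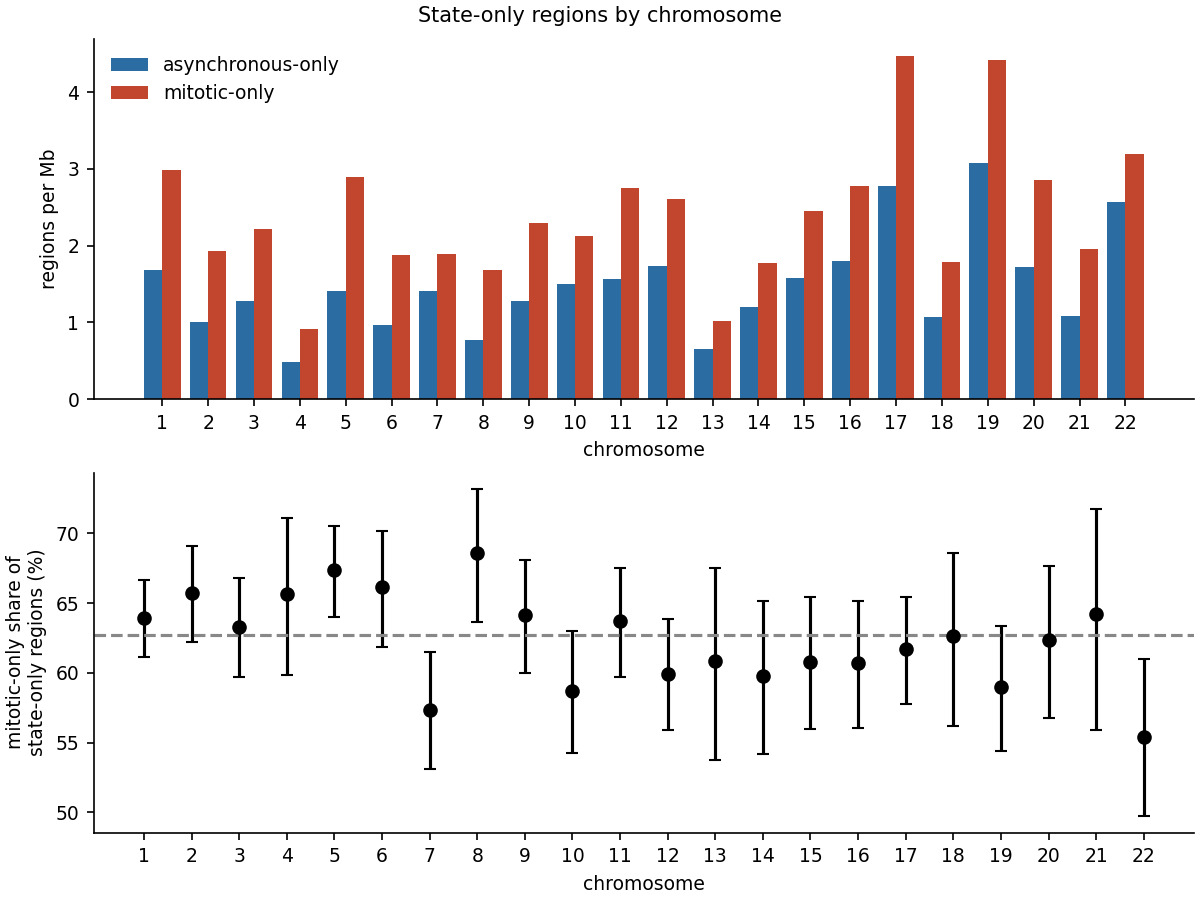
Asynchronous-only and mitotic-only regions per Mb of each chromosome (top) and the mitotic-only share of state-only regions in percent with 95% Wilson intervals (bottom; the dashed line is the share over all 22 chromosomes, 62.7%). Mitotic-only regions outnumbered asynchronous-only regions on every chromosome, and the share ran from 55.4% on chromosome 22 to 68.6% on chromosome 8.

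Both sets were denser towards chromosome ends than merged regions as a whole. Within 5 Mb of an end lay 642 asynchronous-only regions (16.3%) and 937 mitotic-only regions (14.1%), against 12.8% of all merged regions and 7.58% of chromosome length. The mixed pairs had 14.7% to 15.7%. The asynchronous-only share was the highest and the mitotic-only share the lowest of the 6 pairs, and with lists of equal length they were 17.5% and 13.7% against 14.9% to 16.5%. With a -log10 q of at least 5 in every list the shares were 17.03% and 13.31%, against 13.97% to 15.99%. The asynchronous-only share was then again the highest and the mitotic-only share the lowest. Among members of the lists as deposited with both peaks at that level, the shares were 12.9% and 10.7%, against 11.1% to 13.2%. In this subset, chosen after the data were seen, the asynchronous-only share was within the mixed range and the mitotic-only share slightly under it. Leaving out 1 library makes its state's set mostly single-library regions of the other. Such regions had shares of 11.1% to 12.2% near an end, so these settings cannot decide the order of the states. Without asynchronous replicate 3 or 4, the asynchronous-only share was 12.7% or 12.1% and the mitotic-only share 14.3% or 14.96%. Without mitotic replicate 3 or 4, they were 16.5% or 17.3% and 12.2% or 11.7%. Within 1 Mb of an end lay 4.08% and 2.99%. Single-library regions of mitotic replicate 3 were the least frequent within 5 Mb of an end, at 11.1% against 11.7% to 12.2% in the other libraries, and their part in the mitotic-only value was not tested.

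Near centromeres the shares of the 2 states lay close together. Within 5 Mb of the approximate midpoints lay 142 asynchronous-only regions (3.60%) and 218 mitotic-only regions (3.29%), against 3.30% of all merged regions, 2.61% to 4.06% in the mixed pairs and 7.58% of chromosome length. The short arms of the acrocentric chromosomes 13, 14, 15, 21 and 22, which carry the ribosomal RNA genes, held 13 asynchronous-only regions (0.330%) and 19 mitotic-only regions (0.287%), against 0.279% of all merged regions. Midpoints were entered by hand to the nearest Mb from general knowledge of this assembly, and on 21 of the 22 chromosomes the sequence within 1 Mb of them held fewer regions per Mb than the chromosome's average.

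State-only regions were loosely clustered, about as regions of other pairs of like number were. Linked over gaps of up to 50 kb, 31.3% of asynchronous-only and 41.3% of mitotic-only regions had a partner of their own set. The mixed pair closest in number to the first (3543 regions) had 27.0%, and the one closest to the second (5912 regions) had 40.5%. The nearest region of the same set lay a median of 96.6 kb away in asynchronous-only and 69.3 kb away in mitotic-only regions. In the same mixed pairs this was 127 and 68.2 kb. Chains of 5 or more members numbered 6 and 18, and in these mixed pairs 1 and 30. The longest chains held 6 members in both states.

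Within the densest clusters the other state was not empty. The asynchronous-only cluster on chromosome 3 from 50400689 to 50483461 had 6 members with summits of 14 to 20 and 11 to 19 fragments. Over its 82.8 kb the lists held 13 and 15 asynchronous and 5 and 12 mitotic peaks. The cluster on chromosome 11 from 65372007 to 65459630 also had 6 members, with summits of 20 to 50 and 15 to 41 fragments, beside 7 regions called in all 4 libraries. Its lists held 21 and 16 asynchronous and 13 and 20 mitotic peaks, so the groups overlapped. On chromosome 17 from 43597851 to 43734743, 6 members stood among 15 and 15 asynchronous and 10 and 13 mitotic peaks. The remaining clusters of the 5 densest held 5 members each and lay at 35079735 to 35161019 on chromosome 11 and at 173210124 to 173318585 on chromosome 5. In the former the lists held 9 and 7 asynchronous and 4 and 4 mitotic peaks, and in the latter they held 22 and 20 asynchronous and 15 and 15 mitotic peaks.

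Mitotic-only clusters looked alike in this respect. The largest, on chromosome 17 from 39427230 to 39562962, had 6 members and 13 and 15 asynchronous against 13 and 19 mitotic peaks. More one-sided was the cluster on chromosome 8 from 142130513 to 142194416, with 5 members, 4 and 3 asynchronous peaks and 9 and 10 mitotic peaks. Its member summits reached 32 fragments in mitotic replicate 3 and 76 in mitotic replicate 4. On chromosome 16 from 29542897 to 29610739, 5 members came with 5 and 6 asynchronous and 10 and 12 mitotic peaks. Chromosome 2 held the other two, from 10194976 to 10254596 and from 70721322 to 70796919, each with 5 members and no region called in all 4 libraries. The second of them had 3 and 1 asynchronous and 5 and 9 mitotic peaks. Since a cluster was chosen for its members, the difference in its peak numbers has no test.

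Over windows of several Mb the mixture of the states was more uneven than that of the mixed pairs. Across 231 windows of 10 Mb, the mitotic share of state-only regions had a chi-square of 1.28 per degree of freedom, where 1 is the value for a share that varies only as random draws do. The mixed pairs gave 1.00 over 215 windows (replicate 4 against replicate 3) and 1.09 over 179 windows (deepest against shallowest pair). With windows of 5 Mb the values were 1.23 against 0.981 and 1.00, and with windows of 20 Mb 1.34 against 1.06 and 1.10. With lists of equal length they were 1.25 against 1.02 and 1.14. This measure was chosen after the data were seen and has no test, since only the 3 pairings of the libraries can be set side by side.

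The most one-sided windows held from 21 to 70 state-only regions each. Chromosome 9 from 20000001 to 30000000 held 21 mitotic-only and 4 asynchronous-only regions, and the first 10 Mb of chromosome 6 held 57 and 13. At the other extreme, the last window of chromosome 10, from 130000001 to 134758034, held 9 mitotic-only and 18 asynchronous-only regions. That distal long arm is gained in RPE1 cells. Chromosome 15 from 80000001 to 90000000 held 22 and 28.

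Single-library regions overlapped between the states in these windows. In the 5 windows of highest mitotic share together (157 mitotic-only, 34 asynchronous-only) lay 189 and 185 of every 10000 single-library regions of asynchronous replicates 3 and 4, and 172 and 196 of mitotic replicates 3 and 4. The groups overlapped, at 187 ± 2.69 and 184 ± 17.1 (SD, n = 2). In the 5 windows of lowest mitotic share the values were 131 and 132 against 131 and 132 per 10000. Over the 195 windows with at least 20 state-only regions, the log2 ratio of mitotic-only to asynchronous-only regions and that of single-library regions had a Pearson correlation of 0.178. The mixed pairings gave 0.0924 and 0.0651. These are descriptions over windows that share the same libraries.

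Beside mitotic-only regions the asynchronous libraries had the higher share of their single-library regions, and beside asynchronous-only regions the mitotic libraries had. Within 2 kb of a mitotic-only region lay 2.33% and 2.39% of the single-library regions of asynchronous replicates 3 and 4, and 1.60% and 1.90% of those of mitotic replicates 3 and 4. The means were 2.36% ± 0.0402 and 1.75% ± 0.208 (SD, n = 2). Within 2 kb of an asynchronous-only region they were 1.04% and 1.11% in asynchronous against 1.54% and 1.65% in mitotic libraries. Single-library status comes from the same peak calls and merging as the rule, which already places a peak of each own library in the region. These shares are therefore descriptions with no test, and nothing about the states is read from them.

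Every pair of libraries showed this, whether of 1 state or mixed. Within 2 kb, the 2 libraries of a pair both had lower shares than the 2 others in all 6 pairs. The difference was -0.516 points for asynchronous-only and -0.612 for mitotic-only regions, and -0.418, -0.583, -0.888 and -0.301 for the mixed pairs. Within 10 kb the order was the same in all 6 pairs, with -0.497 and -1.05 points for the states. Within 50 kb the difference was 0.182 points for asynchronous-only and -0.981 for mitotic-only regions, and the libraries overlapped. With a -log10 q of at least 5 in every list, the mitotic minus asynchronous difference within 10 kb of asynchronous-only regions went from 0.497 to -0.00257 points.

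**Figure D4:**
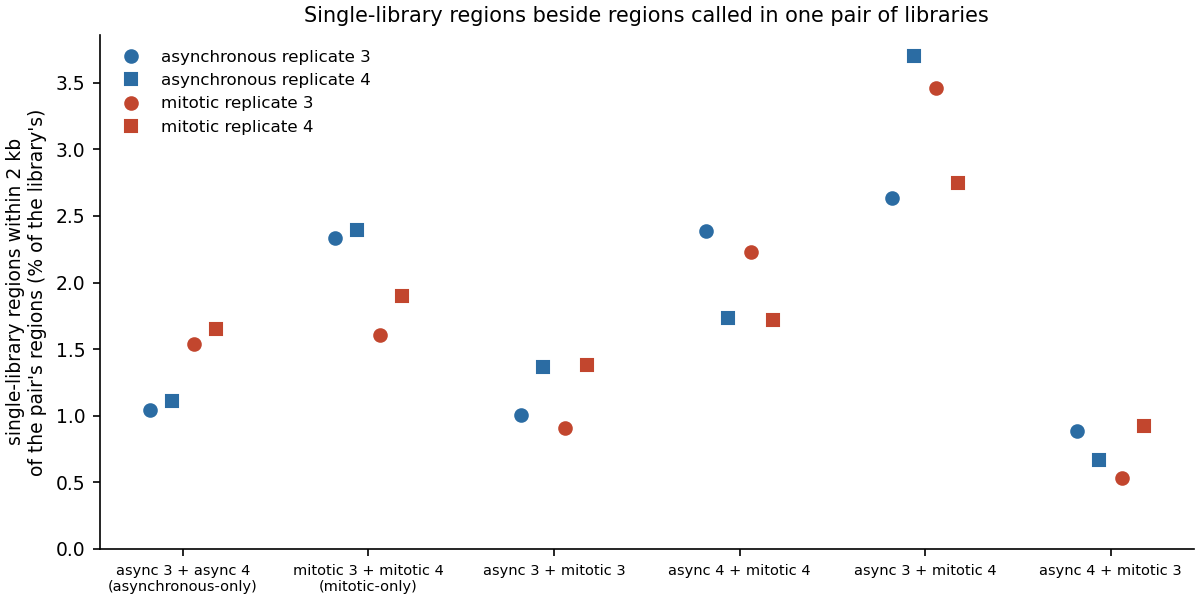
Share of each library's single-library regions (percent) that lay within 2 kb of the regions of each of the 6 pairs, 1 point per library. In each column the 2 libraries of the pair lie under the 2 others, as in the mitotic-only column, where mitotic libraries sit at 1.60% and 1.90% and asynchronous ones at 2.33% and 2.39%.

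Shared regions beside state-only regions had nearly equal summit heights in the 2 states. Of the 19822 regions called in all 4 libraries, 1911 lay within 10 kb of a mitotic-only and 1244 within 10 kb of an asynchronous-only region, 136 of them near both. Near mitotic-only regions the median summit was 27 and 23 fragments in asynchronous and 21 and 35 in mitotic libraries, against medians of 25, 21, 20 and 33 over all shared regions. On the log2 scale relative to each library's median over shared regions, asynchronous libraries averaged 0.121 ± 0.0143 and mitotic libraries 0.0776 ± 0.0103 (SD, n = 2), with no overlap and an exact permutation p of 0.333. The difference was -0.04 log2 units, lower in the state in which the neighbouring regions were called. Pileups are whole fragments, and for the 3 shallower libraries 1 fragment at these medians is a larger step than that difference. Within 10 kb of regions of the mixed pairs, the mitotic minus asynchronous difference ran from -0.00512 to 0.0441. The latter, beside replicate 3 of both states, also came with no overlap and an exact permutation p of 0.333. A separation of about this size thus also occurred beside a pair that mixes the states.

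Near asynchronous-only regions the medians were 26 and 22 fragments in asynchronous and 22 and 35 in mitotic libraries. The log2 values were 0.0619 ± 0.0074 and 0.111 ± 0.0372 (SD, n = 2; exact permutation p = 0.333, groups not overlapping), a difference of 0.05. Within 2 kb the difference was -0.04, so its direction is not settled. Without mitotic replicate 3 or 4 the values were -0.00355 and -0.0483. Members and shared regions are both redefined there, so nothing about the direction is read from these settings. Near mitotic-only regions it was 0.0104 within 50 kb. Taken region by region, the median mitotic minus asynchronous difference was -0.03 log2 units near mitotic-only and -0.03 near asynchronous-only regions, against -0.02 over all shared regions. Of shared regions, 46.7%, 45.3% and 47.5% were higher in mitotic cells, in that order.

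In the test of shared regions between the states, few passed and none of those lay beside a state-only region. By limma with Benjamini-Hochberg adjustment over all 19822 shared regions, 13 (0.0656%) had an adjusted p under 0.05, 10 of them higher (0.0504%) and 3 lower (0.0151%) in mitotic cells. None of these 13 lay within 10 kb of a state-only region. With so low a share over all regions, the absence of calls is no result about these neighbours. At an unadjusted limma p under 0.05 there were 1771 shared regions (8.93%), and 155 of 1911 (8.11%) near mitotic-only and 101 of 1244 (8.12%) near asynchronous-only regions. The called regions closest to a mitotic-only region were on chromosome 10 from 80595727 to 80596273, at 14.9 kb, with 9 and 14 asynchronous and 25 and 48 mitotic fragments (1.46 log2 units, SE 0.30, limma adjusted p = 0.00886), and on chromosome 9 from 2813360 to 2814547, at 16.7 kb (1.42, SE 0.30, limma adjusted p = 0.0129). The calls rest on the setting, as no region passed without the trended prior or with background scaling, where 1526 and 1646 had an unadjusted p under 0.05. With a mean pileup of at least 20, 21 of 13522 passed, 1 near each state-only set, and without mitotic replicate 4, 17 passed, 1 of them near a mitotic-only region.

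**Figure D5:**
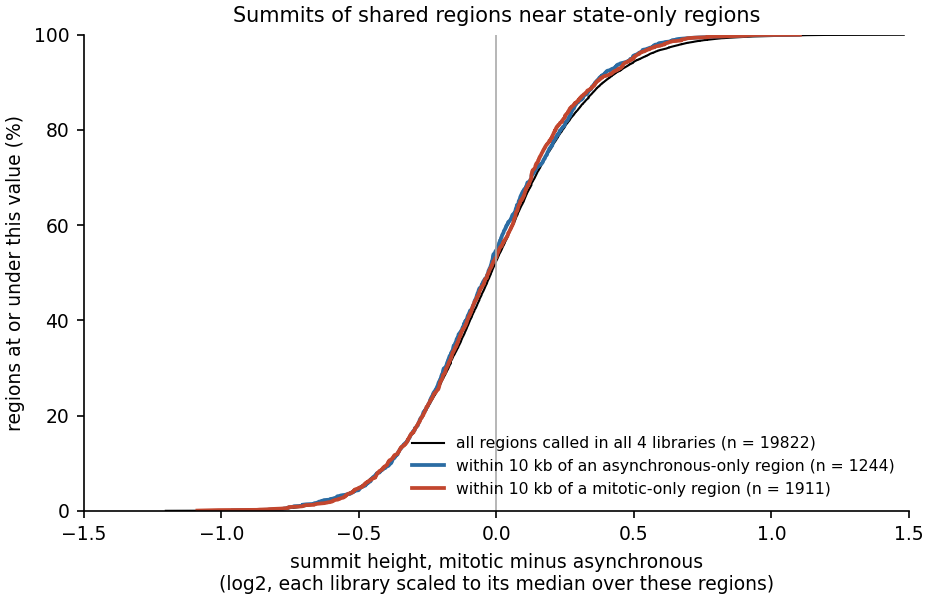
Cumulative share (percent) of regions called in all 4 libraries by their difference in summit height between mitotic and asynchronous cells (log2, scaled to each library's median), for all 19822 such regions (black), the 1244 within 10 kb of an asynchronous-only region (blue) and the 1911 within 10 kb of a mitotic-only region (red). The 3 curves nearly coincide, with medians of -0.02, -0.03 and -0.03.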

How the data were processed

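SAF-A was profiled by CUT&Tag with an E. coli DNA spike-in, per the labels' protocols. The submitters' processing notes list fastp, Bowtie2, bedtools, MACS2 and the build hs1. Versions, settings, controls and use of the spike-in: not given in the sources used here. Each library has its own peak list, deposited by the authors. The deposited fold is the authors' ratio of summit to local background, and their -log10 p and -log10 q are also as deposited. The deposited score was not used.

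Peaks on chromosomes 1 to 22 were merged on 1 shared bp. Summit pileups were solved from the deposited fold and -log10 p, came out whole within 0.05 and were rounded. The smallest local background of a list stands for its depth, since library totals were not used. Distances to chromosome ends run from the first base on the left and from the outermost peak on the right. No hs1 genome or annotation was used, so regions carry no gene or sequence.

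Values per library were tested by exact permutation, and summits of shared regions with limma 3.58.1 (trended prior, adjusted p threshold 0.05) in R 4.3.3, after median scaling. Merging, recovery, distances and the fit were tested on simulated data. Named regions are, per state, the 5 strongest (by the lower rank, at least 183 bp wide), the 5 densest clusters, the 3 farthest from shared regions and those at the rule's edge. Members, lists and measures were chosen with earlier results of these data known.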

Additional observations from a re-analysis of the deposited data

Results flagged for a closer look

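Chromosome X lies outside the rule, and regions called in 1 state only occurred there too. Its 6125 merged regions included 240 of them, 77 asynchronous-only (1.26%) and 163 mitotic-only (2.66%). The mitotic share was 67.9%, within the range of the autosomes. The mixed pairs had 82, 142, 223 and 41 regions there.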

How the results depend on the processing

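With a -log10 q of at least 5 in every list, asynchronous-only and mitotic-only regions numbered 511 and 2119, lay a median of 35.8 and 44.1 kb from shared regions and were clustered in 6.07% and 16.5%. Members with both peaks past that level (chosen after seeing the data) numbered 147 and 709, with 15.7 and 26.7 kb, and 4.08% and 5.64% clustered. Lists of equal length gave 25.7 kb and 33.5% for mitotic-only regions. The clustered shares were 28.1% and 37.1% with a 50% overlap, 27.4% and 42.8% with a common smallest width, 12.6% and 19.6% with links of 20 kb and 51.1% and 61.0% with 100 kb, and the mitotic-only share was 42.7% when peaks 500 bp apart were merged. The differences that changed sign were, near asynchronous-only regions, single-library regions at a -log10 q of 5 (-0.00257 points) and at 50 kb (-0.182), and summits at 2 kb (-0.0435 log2) and without mitotic replicate 3 (-0.00355) or 4 (-0.0483), and, near mitotic-only regions, summits at 50 kb (0.0104). The limma fit called 0 regions without the trend, 0 with background scaling and 21 at a mean pileup of at least 20, 1 of them near each set.

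Leaving out 1 library makes its state rest on the other alone, so the rule itself changes and these settings cannot decide the order of the states. Asynchronous-only regions then numbered 5233 to 52560 and mitotic-only regions 9495 to 62288. Medians ran from 16.7 to 24.5 and from 17.99 to 29.3 kb. The order of the states turned without either asynchronous library and held without either mitotic library. Clustered shares ran from 38.7% to 91.1% and from 53.1% to 93.6%. Unevenness ran from 1.66 to 3.07. Single-library differences ran from 0.270 to 0.725 and from -1.36 to -0.748 points, and summit differences from -0.0483 to 0 and from -0.0352 to 0. The fit called 6 and 3 regions without asynchronous replicate 3 or 4, and 1 and 17 without mitotic replicate 3 or 4, the lone library being assumed to vary like the other state. The labels do not say whether same-numbered libraries shared more than a number. The correlation of their deviations was -0.0500, and the replicate block left the count of calls at 13. Unevenness with the stricter lists had too few windows for a value. The peak lists give no signal where no peak was called.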

Other observations

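The merged regions on either side of a state-only region were rarely of its own set. Of the neighbours of asynchronous-only regions, 1.70% were asynchronous-only, and this set is 1.67% of all merged regions. Of the neighbours of mitotic-only regions, 2.53% were mitotic-only, against 2.81% of all. Regions called in all 4 libraries were 9.37% and 8.97% of the neighbours, against 8.39% of all regions and 7.92% to 9.16% beside the mixed pairs. The nearest asynchronous-only region was a median of 118 kb from a mitotic-only region, and the nearest mitotic-only region 63.3 kb from an asynchronous-only one.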
